A study of Mus musculus with 3 samples.

Results

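The regions described here are the TH2B peaks that lay outside protein-coding genes and stood alone, taken from native ChIP-seq of mature caudal sperm. A TH2B peak was a member when its centre was more than 1000 bp from every transcription start site (TSS) of a protein-coding gene, lay in no protein-coding gene body and had fewer than 4 other TH2B peaks centred within 100 kb. Of the 1179 TH2B peaks, 327 met the rule. Another 465 were centred within 1000 bp of a protein-coding TSS, 226 lay further inside a protein-coding gene, and 161 lay outside genes in dense groups of peaks. The same rule left 66 of the 210 TH2A peaks.

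TH2B and TH2A are testis-specific variants of the core histones H2B and H2A. During spermiogenesis most histones of the male genome give way to protamines, and the nucleosomes that stay in mature sperm are known to be frequent at CpG-rich promoters and developmental genes. Sequence outside protein-coding genes holds the genes of long noncoding RNAs (lncRNAs) and small RNAs, distal regulatory elements, repeats, and pseudogenes. A processed pseudogene, or retrocopy, is a copy of a spliced messenger RNA that was written back into the genome, so that it carries the exons of its source without the introns.

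The libraries came from caudal sperm of BALB/c-129-E mice of 8 to 12 weeks, with 1 library each for TH2B, TH2A and the Input DNA. The TH2B library was made with a rabbit antibody against mouse TH2B, and about 30000000 unique read pairs were obtained for it. The peak list gave positions without a height or a score, so the members differ here in place, width and sequence only. There was no replicate library. The intervals below are 95% Wilson intervals over peaks of 1 library and cover counting error only, and no test between groups of peaks was made. Where a count was 0, the limit given is not a Wilson bound but the share that 3 counts of the total would make. Positions are in mm10 (GRCm38) and gene names from GENCODE M21.

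Of the 327 members, 312 lay on assembled chromosomes and 15 on 8 unplaced or unlocalized sequences. Sequence was read for the 312. No other TH2B peak lay within 100 kb of 225 members, while 58 had 1 such neighbour, 29 had 2 and 15 had 3. A further 15 peaks outside genes had 4 neighbours and so fell just outside the rule. The members nearest to the distance limit were a peak 1135.5 bp from the TSS of Tob1, one 1177 bp from that of Osbpl2 and one 1335.5 bp from that of Ackr3. Peaks at Nrn1 and Brat1, which were 995.5 and 839 bp from the TSS, were among those left out by it. With the coding starts of RefSeq in place of GENCODE, 8 members were within 1000 bp of one, the nearest being Pom121 at 69.5 bp, Rhov at 138 bp and Eps8l3 at 226.5 bp.

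The sequences of the sites that the results turn on are shown first. The peaks below lie at the start of a noncoding gene or pseudogene, and capitals mark each CpG. The peak of the lincRNA gene Gm13003 (chr4:137164966-137165165) was the nearest of all members to such a TSS and held 6 CpGs. The peak of the antisense gene Gm5089 (chr14:122406599-122406831) held 21 CpGs, and that of the alkaline phosphatase pseudogene Akp-ps1 (chr1:87067811-87068029) held 0. All sequences are from the RefSeq GRCm38.p6 assembly, plus strand unless stated.
Gm13003 start: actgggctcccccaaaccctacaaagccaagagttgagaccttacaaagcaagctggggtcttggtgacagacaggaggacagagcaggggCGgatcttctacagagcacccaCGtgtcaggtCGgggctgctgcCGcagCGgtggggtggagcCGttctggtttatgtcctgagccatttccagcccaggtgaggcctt
Gm5089 start: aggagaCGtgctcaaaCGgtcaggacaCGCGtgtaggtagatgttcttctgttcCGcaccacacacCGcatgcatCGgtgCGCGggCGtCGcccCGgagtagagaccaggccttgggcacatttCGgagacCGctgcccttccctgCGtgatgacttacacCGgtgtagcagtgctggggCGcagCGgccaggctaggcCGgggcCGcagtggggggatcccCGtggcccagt
Akp-ps1 start: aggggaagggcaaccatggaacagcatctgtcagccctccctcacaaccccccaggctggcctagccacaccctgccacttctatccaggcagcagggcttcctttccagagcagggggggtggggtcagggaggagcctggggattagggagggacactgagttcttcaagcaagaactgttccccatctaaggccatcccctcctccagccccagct

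The next peaks lie beside the microRNA gene Mir219a-2 and the developmental genes Pou3f2 and Hoxd9. The central 200 bp (chr2:29845869-29846068) of the 303-bp peak upstream of Mir219a-2 held 10 CpGs, the Pou3f2 peak (chr4:22490296-22490514) held 13 and the Hoxd9 peak (chr2:74700509-74700724) held 6. The mature microRNA made from Mir219a-2 is given after them with its seed, bases 2 to 8, in capitals.
Mir219a-2 upstream: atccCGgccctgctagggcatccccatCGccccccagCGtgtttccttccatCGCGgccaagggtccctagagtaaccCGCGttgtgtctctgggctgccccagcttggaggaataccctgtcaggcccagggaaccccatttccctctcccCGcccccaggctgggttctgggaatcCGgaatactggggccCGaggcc
Pou3f2 upstream: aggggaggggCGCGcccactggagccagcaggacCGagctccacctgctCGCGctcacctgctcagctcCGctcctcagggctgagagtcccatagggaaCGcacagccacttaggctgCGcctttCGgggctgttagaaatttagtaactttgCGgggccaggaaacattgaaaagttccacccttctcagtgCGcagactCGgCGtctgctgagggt
Hoxd9 downstream: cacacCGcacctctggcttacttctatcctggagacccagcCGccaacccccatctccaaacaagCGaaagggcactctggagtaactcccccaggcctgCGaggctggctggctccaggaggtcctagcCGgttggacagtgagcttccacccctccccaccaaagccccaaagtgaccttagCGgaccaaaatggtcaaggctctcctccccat
mmu-miR-219a-5p: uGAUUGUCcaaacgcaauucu

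A further pair shows peaks on retrocopies, in the direction of the source messenger RNA. Here a change from lower case to capitals or back marks the place where an intron stands in the coding gene. The peak in Gm9816 (chr16:62717720-62717919) matched the messenger RNA of Gps1, and its 200 bp ran across 3 exon junctions. The peak in Gm8096 (chr8:28084586-28084873, minus strand) matched Phgdh across 2 junctions.
Gm9816: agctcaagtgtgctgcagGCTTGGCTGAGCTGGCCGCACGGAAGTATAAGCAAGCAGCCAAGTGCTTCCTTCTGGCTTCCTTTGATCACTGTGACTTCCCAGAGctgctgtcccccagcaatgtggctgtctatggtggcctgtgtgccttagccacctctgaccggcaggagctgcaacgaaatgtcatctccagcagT
Gm8096: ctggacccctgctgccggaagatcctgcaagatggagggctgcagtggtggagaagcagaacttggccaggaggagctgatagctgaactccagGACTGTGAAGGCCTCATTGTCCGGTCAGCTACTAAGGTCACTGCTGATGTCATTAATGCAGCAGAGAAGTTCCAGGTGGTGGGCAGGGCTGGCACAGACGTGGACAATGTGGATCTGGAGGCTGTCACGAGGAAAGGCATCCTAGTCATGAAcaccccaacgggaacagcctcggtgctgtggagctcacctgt

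The last pair shows the repeat with the most copies among the members, again with CpGs in capitals. The peak near Shisa9 (chr16:12331137-12331336) held 12 CpGs and the peak near Naip1 (chr13:100380302-100380510) held 11.
family 3, near Shisa9: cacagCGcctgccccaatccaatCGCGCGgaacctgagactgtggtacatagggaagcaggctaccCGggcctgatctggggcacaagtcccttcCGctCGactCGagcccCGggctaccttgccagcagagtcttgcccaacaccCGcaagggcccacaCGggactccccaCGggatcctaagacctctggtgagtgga
family 3, near Naip1: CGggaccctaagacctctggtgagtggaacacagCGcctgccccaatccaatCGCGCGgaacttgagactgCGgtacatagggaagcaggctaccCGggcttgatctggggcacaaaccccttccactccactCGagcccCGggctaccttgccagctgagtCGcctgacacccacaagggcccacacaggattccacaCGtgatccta

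Of the 327 members, 98 overlapped an annotated noncoding gene or pseudogene (30%, interval 25.3 to 35.1%). Over the whole TH2B list this share was 21.2%, and in the dense groups outside genes it was 28% (interval 21.6 to 35.3%). A lncRNA gene was overlapped by 58 members (17.7%, interval 14 to 22.2%), against 14.9% of the whole list, which lies inside the interval, and 23% in the dense groups (interval 17.2 to 30.1%). A pseudogene was overlapped by 38 members (11.6%, interval 8.58 to 15.5%), against 5.68% of the whole list and 9.32% in the dense groups (interval 5.73 to 14.8%). The members' shares thus overlapped those of the dense groups in all 3 measures. There was a small RNA gene at 3 members and a predicted gene of the TEC class, which awaits experimental support, at 3. By biotype, 35 members met a lincRNA, 27 a processed pseudogene, 19 an antisense transcript and 10 a processed transcript. Within lncRNA genes, 22 of the 58 members touched an exon and the others lay in introns only. Within pseudogenes, 34 of the 38 touched an exon.

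These shares were set beside all 200-bp windows outside protein-coding genes, which numbered 7954137. The peak centre lay in a lncRNA gene for 17.9% of the 312 members (interval 14.1 to 22.6%) and 9.44% of windows. It lay in a pseudogene for 10.6% of members (interval 7.63 to 14.5%) and 1.68% of windows. Since the members were GC-rich, the comparison was repeated between members and windows with a GC content of 55 to 62%. Within that range GC content was not equalized, so members and windows may still differ in it. In that range 32 of 187 members were in a lncRNA gene (17.1%, interval 12.4 to 23.2%) against 11.7% of windows, and 27 of 187 were in a pseudogene (14.4%, interval 10.1 to 20.2%) against 2.75% of windows. The lncRNA share of windows was below the members' interval in both comparisons, though by little in the GC range, and the pseudogene share was well below it in both.

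**Figure D1:**
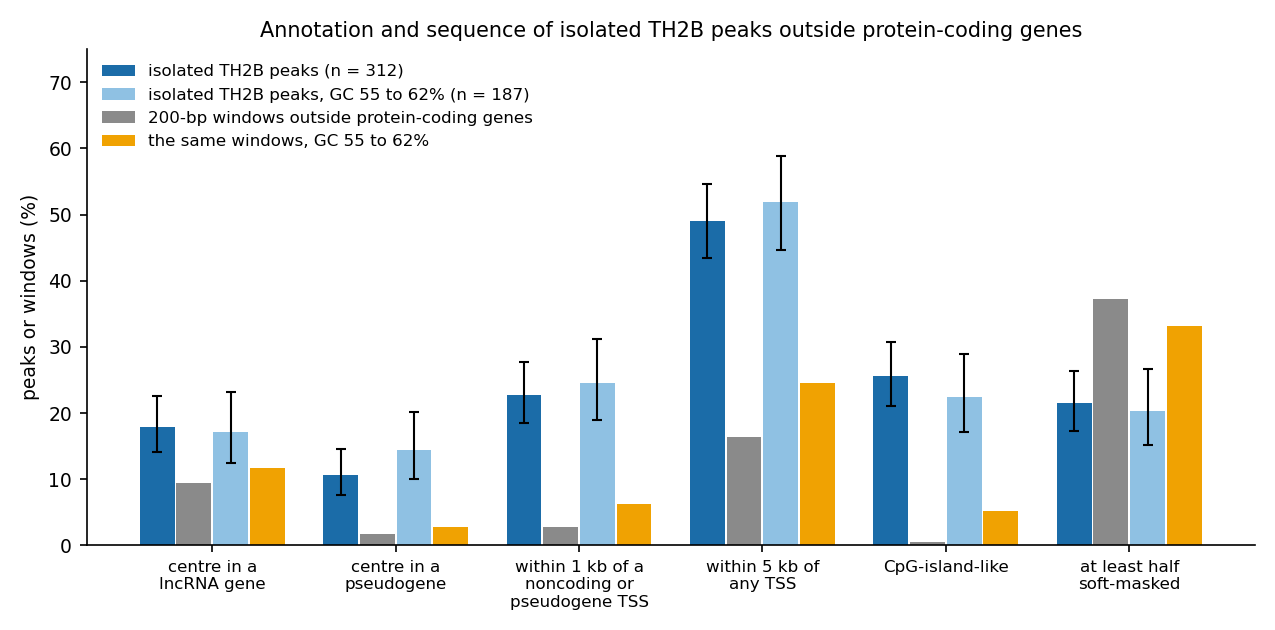
Share, in percent, of isolated TH2B peaks outside protein-coding genes that met each feature on the x axis, for all 312 peaks on assembled chromosomes (blue, beside all 200-bp windows outside protein-coding genes in grey) and for the 187 with a GC content of 55 to 62% (light blue, beside windows of that GC content in orange), with 95% Wilson intervals on the peaks. Both sets of peaks were above their windows in every feature drawn except soft-masked repeats, where all 312 were at 21.5% against 37.3%.

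Part of the members lay near the annotated start of a noncoding gene or pseudogene. The centre was within 1 kb of a noncoding or pseudogene TSS for 73 of 327 members (22.3%, interval 18.1 to 27.1%). Over the whole TH2B list this share was 16.5%, at coding starts 15.5% and in the dense groups outside genes 13% (interval 8.69 to 19.1%). On the assembled chromosomes it was 71 of 312 members (22.8%, interval 18.5 to 27.7%), against 2.83% of windows. In the GC range of 55 to 62% it was 46 of 187 members (24.6%, interval 19 to 31.2%) against 6.22% of windows. The nearest such start belonged to a pseudogene for 35 of the 73, to a lncRNA for 26, to a small RNA for 7, to a TEC gene for 4 and to an immunoglobulin segment for 1. Of the 73, only 14 overlapped no noncoding gene or pseudogene. The share near starts thus largely repeats the overlap with these genes given above and is not a separate result. With protein-coding starts counted too, 159 members (48.6%, interval 43.3 to 54%) lay within 5 kb of some annotated TSS. Over the whole TH2B list, which includes the peaks at coding starts, this share was 67.2%. On the assembled chromosomes it was 153 of 312 members (49%) against 16.4% of windows. In the GC range it was 51.9% against 24.5%. The median distance to a noncoding or pseudogene TSS was 10009 bp (quartiles 1229.5 and 28181 bp). No noncoding gene was overlapped and none started within 1 kb for 215 members.

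Among lncRNA starts, the closest peaks were centred 0.5 bp from that of Gm13003, 12 bp from that of 4930412L05Rik, 28 bp from that of Gm5089, 42.5 bp from that of Wbscr25 and 52 bp from that of 4930448E22Rik. Their GC content ran from 59.5% at Gm13003 to 65.7% at Gm5089. CpG content varied more, as the printed sequences show. The observed over expected CpG ratio, which is near 1 where CpGs are not depleted, was 0.84 at Gm5089, 0.69 at 4930412L05Rik, 0.67 at 4930448E22Rik, 0.34 at Gm13003 and 0.20 at Wbscr25. For none of these 5 peaks was a near-identical copy found elsewhere in the genome. Other lncRNA starts within 250 bp of a member were those of 4933438K21Rik at 62.5 bp, 1700008N11Rik at 98.5 bp, 2810405F17Rik at 119 bp, Gm30731 at 143 bp, 1700012D14Rik at 146 bp, Gm26871 at 149.5 bp, 4933409F18Rik at 151.5 bp, Gm15418 at 162.5 bp and Gm10830 at 183 bp.

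The centre lay in a small RNA gene for 1 of 312 members (0.321%, interval 0.0566 to 1.79%) against 0.0244% of windows. Nothing is read from 1 member. The 303-bp peak beside Mir219a-2 began 90 bp upstream of the hairpin (chr2:29845631-29845727, minus strand), and its centre was 241 bp from the hairpin's first base. miR-219a is known for its part in oligodendrocyte differentiation. The peak was 67% GC with a CpG ratio of 0.59 and had 0 copies elsewhere. Its centre was also 874 bp from the RefSeq start of the protein-coding gene Cercam. It is thus among the 8 members that the 1000 bp limit would leave out with RefSeq starts. Of the other microRNA genes, Gm44463 started 525.5 bp from the Hoxd9 peak, Gm24155 was overlapped by a peak in an intron of Gm26871, and CR524822.1 started within 1 kb of 2 members on an unplaced sequence. A peak on chromosome 13 (chr13:23411858-23412114), 6375 bp from Abt1, overlapped the valine tRNA gene n-TVcac2.

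Lists of regulatory RNAs and their loci gave few members. A member lay within 5 kb of 1 of the 15 Hox cluster noncoding genes (Hoxd3os1, at 2524 bp) and of 1 of the 4 regulatory RNAs the study singled out (Mir219a-2). For noncoding genes of imprinted loci it was 0 of the 11 found in the annotation, for X inactivation 0 of 4, for widely expressed lncRNAs such as Malat1 and Neat1 0 of 11, and for noncoding testis RNAs 0 of 1. The annotation held 10155 lncRNA genes against 327 members, and the share of all noncoding genes with a member within 5 kb was not computed. Nothing is therefore read from the counts in these short lists. The lists also held 6 genes that the annotation types as protein-coding (Rtl1, Mcts2, Sfmbt2, Snhg11, Tsx and Meiob), whose starts and bodies the member rule leaves out. TH2B peaks at Kcnq1ot1, Snhg14 and Hoxb3os existed but fell in gene bodies, in a dense group and at a coding TSS, so that they were not members. The same held for the TH2B peaks nearest to 2 other regulatory RNAs of the study. That 744 bp from Mir196b lay in a gene body and that 498 bp from 1010001N08Rik at a coding TSS.

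Processed pseudogenes were the most frequent pseudogene class, with 27 members, all of them in the annotated exon. The whole annotation held 9941 processed pseudogenes, of which 34 met a TH2B peak of any kind. The sequence of the peak was aligned to the transcripts of protein-coding genes, and 21 of the 27 peaks matched one at 80% identity or more across 50% or more of its length. The median identity was 95.5% (range 82.5 to 100%). These 21 peaks matched 16 coding genes. A TH2B peak in the coding gene or within 1 kb of it was present for 1 of the 16, Eno1b, which had 2. Over all 22028 protein-coding genes this was so for 3.4%, and nothing is read from the number among the 16. Of the 27 peaks, 16 had a near-identical copy elsewhere, meaning that 80% or more of the peak aligned there at 95% identity or more, and no mapping quality filter is given in the sources used here, so the placement of reads between copies could not be followed.

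Retrocopies of Phgdh, the gene of the first enzyme of serine synthesis, carried 4 members, 1 each. The peak in Gm9252 was 678 bp wide and 96% identical to bases 776 to 1452 of the Phgdh messenger RNA, crossing 5 exon junctions. That in Gm6756 was 510 bp wide, matched bases 674 to 1183 at 94.1% and crossed 3. The peak in Gm8096 matched bases 201 to 491 at 95.5%, and the peak in Gm5207 matched bases 1339 to 1556 at 87.6%. The peaks of Gm9252 and Gm6756 thus shared part of the message, while that of Gm8096 lay in a stretch the others did not cover. Phgdh itself had 0 TH2B peaks. Their GC content was 55.9 to 61.2% and their CpG ratio 0.11 to 0.26. A near-identical copy was present for Gm9252 (2 copies) and Gm8096 (4 copies) and for neither of the others.

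The splicing factor gene Crnkl1 had 2 retrocopies with a member, Gm4782 and Gm8038, on the same chromosome. They lay at chr6:50609135-50609387 and chr6:50621236-50621460, and they matched overlapping stretches of the message at 91.3 and 93.3%. The poly(A)-binding protein gene Pabpc4 was the best match of 2 members, in Gm12626 and Gm11841, at 96.1 and 97.8%. Ribosomal protein genes were the match of 4 members, with Rpl7a-ps2 matching Rpl7a at 94.3%, Gm5851 matching Rpl3 at 97.4%, Gm13841 matching Rpl29 at 99.4% and Gm13035 matching Rplp1 at 89.3%. The pseudogene Rps4l-ps held a further member that matched no transcript by these limits. Further single matches were Gm9816 to Gps1 of the COP9 signalosome (99.5%), Gm7353 to Zc3h3 (100%), Gm5913 to the RNA-binding protein gene G3bp1 (97.6%), Gm6637 to Snu13 (93.8%), Gm18669 to Ccdc137 (93.9%), Gm7382 to the actin-related protein gene Arpc1b (92%), Gm9245 to Wbp11 (82.5%) and Gm9826 to Gm4737 (99.4%). The widest of all 327 members, at 975 bp (chr2:80837570-80838544), lay in Gm4735 and was 99.7% identical to the enolase gene Eno1b. That match crossed 0 exon junctions, so it does not show whether Eno1b was the source of the copy. The matches of Gm12626, Gm13841, Gm7353 and Gm9826 also crossed 0, and the same limit holds for them.

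In the coding gene the same bases are mostly spread over introns. For 16 of the 21 peaks the match crossed at least 1 exon junction and for 5 it lay in 1 exon. The 291 bases that Gm8096 shares with Phgdh spanned 6533 bp of the Phgdh gene, and the longest such span, for Gm9252, was 6918 bp.

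**Figure D2:**
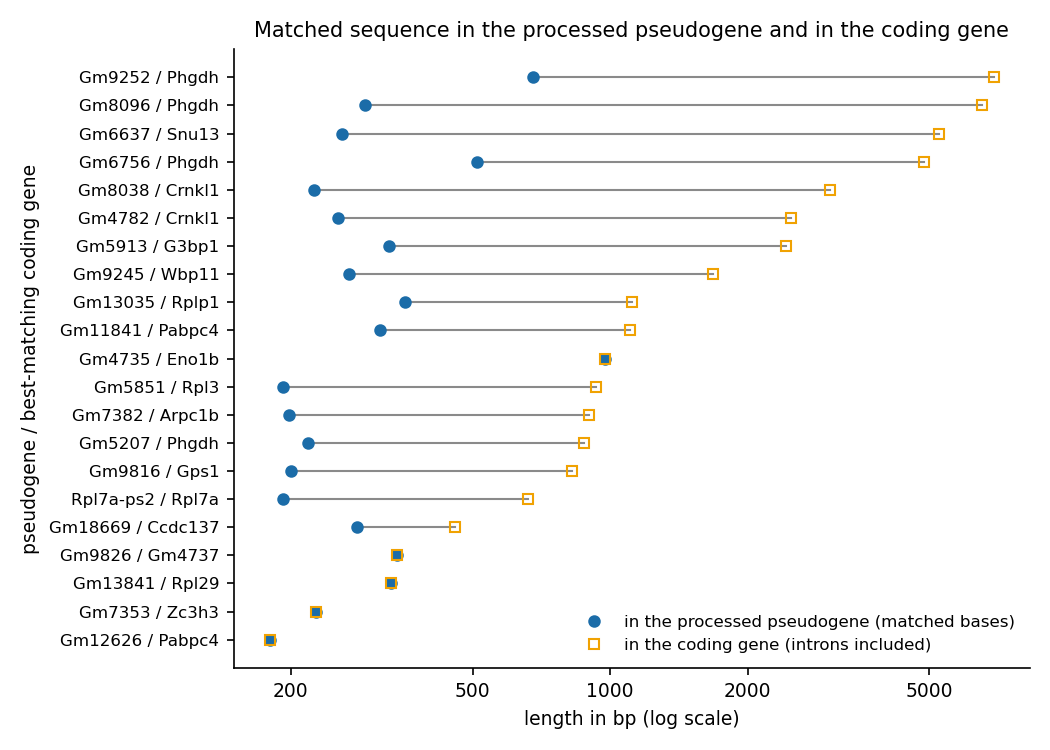
Each line is 1 isolated TH2B peak in a processed pseudogene, named with the coding gene its sequence matched best. The circle gives the matched length in bases and the square the length that the same bases span in the coding gene, introns included, in bp on a log axis. The longest spans, 6918 and 6533 bp, belong to the Phgdh retrocopies Gm9252 and Gm8096, and 5 pairs coincide because the match lies in 1 exon.

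Outside annotated pseudogenes, 12 members with less than 50% repeat sequence also matched a coding transcript. A 548-bp peak (chr19:28975097-28975644) was 84.4% identical to the tektin gene Tekt5, which encodes a protein of the sperm flagellum and had 1 TH2B peak of its own. A 200-bp peak (chr6:149363591-149363790) was 98.5% identical to Nacc1, which had 0 peaks. Of the other matched genes, 2410141K09Rik had 1 TH2B peak. Gm20431, Serpina1e, 2610044O15Rik8, Vmn2r13, Cdk6, Frg2f1, Zfp983, Zfp978 and Vmn2r69 had 0. Over all protein-coding genes 3.4% had one, and nothing is read from these 12. Pseudogenes of other classes held members too, among them the unitary pseudogene Mlnr-ps of the motilin receptor at 109 bp from its start, the kallikrein pseudogene Klk2-ps, and Gm20392 and Gm8835 in the major histocompatibility region beside H2-T3.

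The distance to protein-coding genes was as follows. The members' centres lay a median of 22095.5 bp from the nearest protein-coding gene (quartiles 6521 and 77258 bp, 317 members). They were upstream of that gene in 162 cases and downstream in 155, so neither side prevailed, and 10 members lay on sequences with no protein-coding gene. For windows outside protein-coding genes the median was 93863.5 bp. By distance to the nearest protein-coding TSS, 46 of 312 members were between 1 and 5 kb (14.7%, interval 11.2 to 19.1%) against 4.7% of windows, and 73 were over 100 kb away (23.4%, interval 19 to 28.4%) against 52.4%. In the GC range of 55 to 62% the members were at 14.4% (interval 10.1 to 20.2%) against 8.48% in the nearest class, and at 26.7% (interval 20.9 to 33.5%) against 30.9% in the farthest. Between 5 and 100 kb the windows of that GC range were inside the members' intervals, and so they were over 100 kb. Within the GC range a higher share of members was thus left in the 1 to 5 kb class only.

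**Figure D3:**
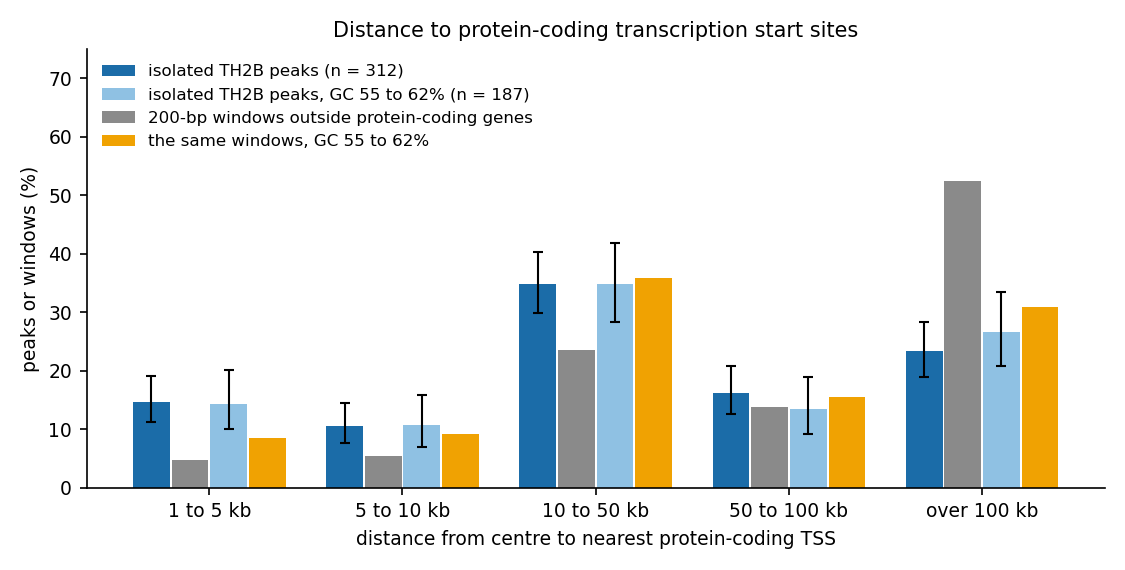
Distance from the centre of the peak or window to the nearest protein-coding TSS, in 5 classes on the x axis, with the share of isolated TH2B peaks (blue, 312 peaks), of 200-bp windows outside protein-coding genes (grey), of the 187 peaks with a GC content of 55 to 62% (light blue) and of windows of that GC content (orange) in percent on the y axis, and 95% Wilson intervals on the peaks. At 1 to 5 kb both sets of peaks are above their windows, and over 100 kb all peaks are at 23.4% against 52.4% of all windows. There the windows with a GC content of 55 to 62%, at 30.9%, are inside the interval of the peaks of that range.

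The member nearest to a coding gene was 22.5 bp past the end of 1700001O22Rik. It was followed by peaks 188.5 bp past Chrm4, a muscarinic acetylcholine receptor gene, 252.5 bp past Nkpd1, 408.5 bp past Hoxd9, 459 bp past Casz1 and 598.5 bp past Acoxl. Of the 10 nearest, 9 lay downstream of the gene, where the 1000 bp limit on starts does not apply. The farthest member was the G3bp1 retrocopy Gm5913, 1539846.5 bp from Got2. Next came a repeat peak 1418670.5 bp from 4931417E11Rik and a peak 1221016 bp from Zfp386 in the immunoglobulin heavy chain region. The Phgdh retrocopies Gm8096 and Gm5207 were also among the 10 farthest, at 463812.5 and 460195 bp.

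The nearest protein-coding gene was a developmental transcription factor, by symbol prefix, for 23 of 312 members (7.37%, interval 4.96 to 10.8%). The list held 260 genes, and it was the nearest family for 2.74% of windows. In the GC range of 55 to 62% it was 13 of 187 members (6.95%, interval 4.11 to 11.5%) against 3.61% of windows. The genes were Barhl2, Barx1, Dlx3, Dlx6, Evx1, Foxa1, Foxa2, Foxb2, Gsx1, Hoxd9, Klf9, Lhx5, Neurog1, Nkx6-2, Nr2f2, Pax2, Pou3f2, Sox18, Sox2 and Zic1, most of which encode homeodomain, forkhead, Sox or basic helix-loop-helix factors. Barx1, Gsx1 and Sox2 had 2 members each.

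These 23 peaks lay close to their genes. The median distance was 4275 bp, and 20 of the 23 lay within 15 kb. The 2 peaks of Gsx1, a homeobox gene of the brain and spinal cord, were 1684 and 2397 bp upstream of it. Those of Barx1 were 3049.5 and 4275 bp upstream. The peaks of Sox2, a pluripotency and neural factor, were 7714.5 bp upstream and 10544.5 bp downstream, both in an intron of the lncRNA Sox2ot. Peaks near Foxa1 and Foxa2, the forkhead factors of endoderm, were 2877 bp upstream and 3152.5 bp downstream. Of the 23, 17 were upstream, 8 overlapped a noncoding gene, among them Dlx6os1 at Dlx6, and 7 were within 1 kb of a noncoding TSS. Their median GC content was 61.2% and their median CpG ratio 0.57, and 10 were CpG-island-like. For none of the 23 was a near-identical copy found elsewhere.

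The zinc finger genes, by prefix, were nearest for 21 of 312 members (6.73%, interval 4.44 to 10.1%) against 1.65% of windows, and in the GC range for 11 of 187 (5.88%, interval 3.32 to 10.2%) against 2.01%. They differed from the developmental group in that 11 of the 21 had a near-identical copy and only 4 were within 15 kb. Of the 21, 6 shared Zfp386 as nearest gene and lay among the variable segments of the immunoglobulin heavy chain locus at 218126 to 1221016 bp from it, one of them in Ighv1-74. Olfactory and vomeronasal receptors were nearest for 6 members (1.92%, interval 0.884 to 4.13%), with 2.51% of windows inside the interval. Testis gene families, by prefix, were nearest for 4 (1.28%, interval 0.5 to 3.25%), with 1.04% of windows inside it. Defensins were nearest for 4 (1.28%, interval 0.5 to 3.25%) against 0.123% of windows, and in the GC range for 0 of 187. All 4 lay at a single locus upstream of Defb33, between 64767 and 80165 bp from it, each with copies elsewhere. No histone gene was nearest to a member, which allows a share of up to 0.962%. The share of windows, 0.193%, lies below that limit, so nothing is read from this absence.

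An enhancer of the VISTA collection, whose elements are tested in mouse embryos, was overlapped by 3 of 312 members (0.962%, interval 0.328 to 2.79%). The share was 0.263% of the whole TH2B list. The 3 enhancers were mm568 with a peak 53358.5 bp from Col1a1, mm1607 with a peak 2734 bp from Gm10382 and mm1406 with a peak 27556.5 bp from Rpl14. None of the 828 other TH2B peaks on assembled chromosomes overlapped one, which allows up to 0.362%, inside the members' interval. Of the 828, the rule placed 464 at coding starts and 221 in gene bodies, so nothing is read from this difference.

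In base composition the members were GC-rich. The median GC content was 59% (quartiles 56 and 61.6%), against 40.5% for windows outside protein-coding genes. It was 61.3% for peaks at coding starts, 59.8% for peaks in gene bodies and 53.6% for peaks in dense groups outside genes, so the members stood nearest to the gene body peaks. The CpG ratio of the members spread widely, from 0 to 1.29, with a median of 0.405 (quartiles 0.215 and 0.624) against 0.133 for windows. At coding starts it was 0.647. Of the members, 17 held no CpG at all. The central 200 bp was CpG-island-like, with GC of at least 50% and a ratio of at least 0.6, in 80 of 312 members (25.6%, interval 21.1 to 30.8%). This was 264 of 464 peaks at coding starts (56.9%, interval 52.4 to 61.3%), 60 of 221 in gene bodies (27.1%, interval 21.7 to 33.4%) and 0.541% of windows. In the GC range of 55 to 62% it was 22.5% of members (interval 17.1 to 29%) against 5.21% of windows. Of the 80, 37 lay within 5 kb of an annotated TSS and 18 within 1 kb of a noncoding one.

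**Figure D4:**
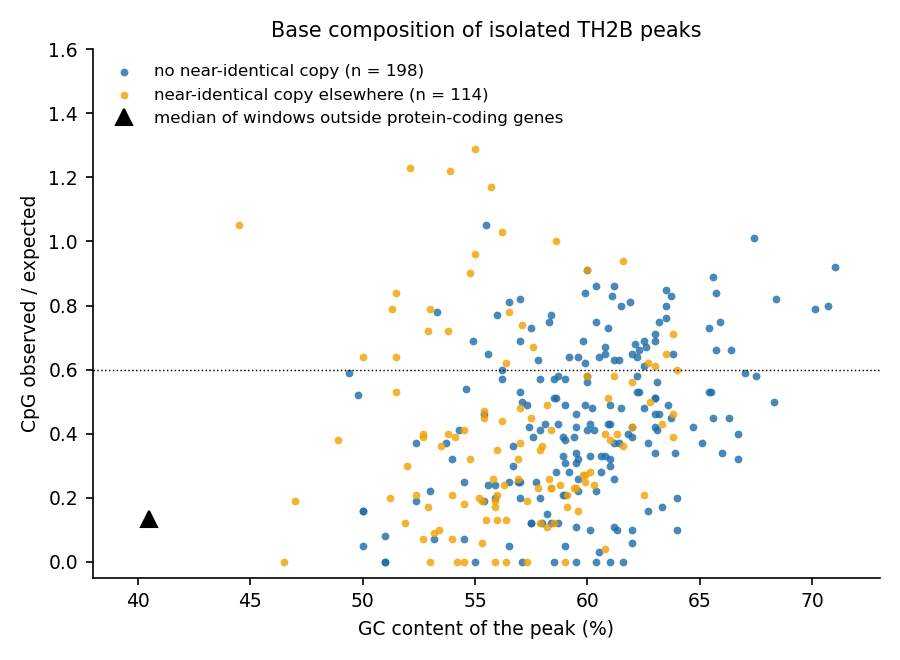
Each point is 1 isolated TH2B peak outside protein-coding genes, by GC content in percent on the x axis and observed over expected CpG on the y axis, for peaks without (blue, 198) and with (orange, 114) a near-identical copy elsewhere. The triangle is the median of 200-bp windows outside protein-coding genes, at 40.5% and 0.133, and the dotted line is a ratio of 0.6. All points lie at higher GC than the triangle, from 44.5 to 71%, while the CpG ratio reaches from 0 to 1.29.

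Motifs were searched on both strands of the central 200 bp. The GC box GGGCGG was found in 63 of 312 members (20.2%, interval 16.1 to 25%) against 1.41% of windows, and in the GC range of 55 to 62% in 17.1% (interval 12.4 to 23.2%) against 9.52%. The box CCAAT was found in 54 (17.3%, interval 13.5 to 21.9%) against 31.8% of windows, and in the GC range in 16% (interval 11.5 to 22%) against 21.1%, which is inside the interval. For the E-box CACGTG it was 16 (5.13%) against 1.68%, and 3.74% against 3.65% in the GC range. For AGGGGGC, a part of the CTCF consensus, it was 15 (4.81%) against 1.33%, and 3.74% against 5.65%. The cyclic AMP response element TGACGTCA was in 1 member (0.321%, interval 0.0566 to 1.79%), with 0.0916% of windows inside the interval. The 2 telomere repeats in tandem, TTAGGGTTAGGG, were in 0 of 312, which allows a share of up to 0.962%. They were in 0.0104% of windows, so nothing is read from their absence. GGGCGG and AGGGGGC can overlap in the letters GGGC, and a match describes the window only.

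A near-identical copy elsewhere in the genome was found for 114 of 312 members (36.5%, interval 31.4 to 42%). Over all TH2B peaks on assembled chromosomes this share was 24.8%. It was 6.68% at coding starts, 17.2% in gene bodies and 69.9% in dense groups outside genes, so the members lay between the gene body peaks and the dense groups. The number of copies had a median of 6.5. It was 1 for 18 members, 2 to 10 for 49, 11 to 100 for 37 and over 100 for 10. Members with a copy had a median GC content of 56.4% and those without 60%. At least 50% of the central 200 bp was soft-masked repeat in 52 of the 114 members with a copy and in 15 of the 198 without. Members without a copy lay nearer to coding genes, at a median of 14916.8 bp against 42771.5 bp. Where a peak has copies, the reads behind it cannot be told apart from reads of the copies by these files.

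Similarity among the members themselves joined 53 of the 312 into 18 families, at 80% identity over at least 50% of the shorter peak, and 259 stood alone. The largest family had 12 members on 10 chromosomes at 80.8 to 94.9% identity. All were 82.6 to 100% soft-masked, with a CpG ratio of 0.23 to 0.66. The second had 6 members on 5 chromosomes, all 100% soft-masked, and the highest CpG ratios of the families at 0.90 to 1.29, with 2 to 72 copies. The third family, shown above by the peaks near Shisa9 and Naip1, had 3 members at 90.7 to 92.3% identity and 52 to 2239 copies, the highest number of any member. The fourth was made of the Phgdh retrocopies Gm5207, Gm6756 and Gm9252. The fifth was a local group of 3 peaks within chr7:64073948-64080532, 73402.5 to 79787.5 bp from Trpm1, with 84 to 85.3% identity and 0 copies by the stricter definition. Another 13 families were pairs.

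A TH2A peak was overlapped by 14 of the 327 members (4.28%, interval 2.57 to 7.06%), against 5.68% of the whole TH2B list, which lies inside the interval. The 14 members met 13 TH2A peaks, with an overlap of 170 to 283 bp and a median of 209.5 bp. Of the 14, 5 lay on unplaced sequences, and 7 of the 9 on chromosomes had a near-identical copy. Among members without a copy, 2 of 198 overlapped a TH2A peak (1.01%, interval 0.277 to 3.61%). In peaks of dense groups outside genes the share was 24.8% (interval 18.8 to 32.1%), and at coding starts 1.29% (interval 0.593 to 2.79%). The 9 on chromosomes included the Rplp1 retrocopy Gm13035, the pseudogene Gm19459 (98.1% identical to Duxf3, a double homeobox gene of early embryo genome activation), 2 of the 4 peaks near Defb33, 1 peak near Speer4f1 and 1 of the 3 peaks near Trpm1. No member beside a developmental transcription factor was among them. With a share of 2.88% over the 312 members on chromosomes, nothing is read from this for those 23 peaks.

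By chromosome the members numbered 2 on Y and 3 on X to 32 on chromosome 5. Per Mb of sequence outside protein-coding genes there were 0.196 members over all chromosomes, with 0.105 on chromosome 1, 0.349 on chromosome 13 and 0.393 on chromosome 5, the highest of the autosomes. The X chromosome had 0.0255 and the Y chromosome 0.0236. X held 7.41% of the windows outside protein-coding genes and 0.962% of the members, and Y held 5.32% and 0.641%. A sperm carries either an X or a Y chromosome, and the part of this in the low density was not tested.

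**Figure D5:**
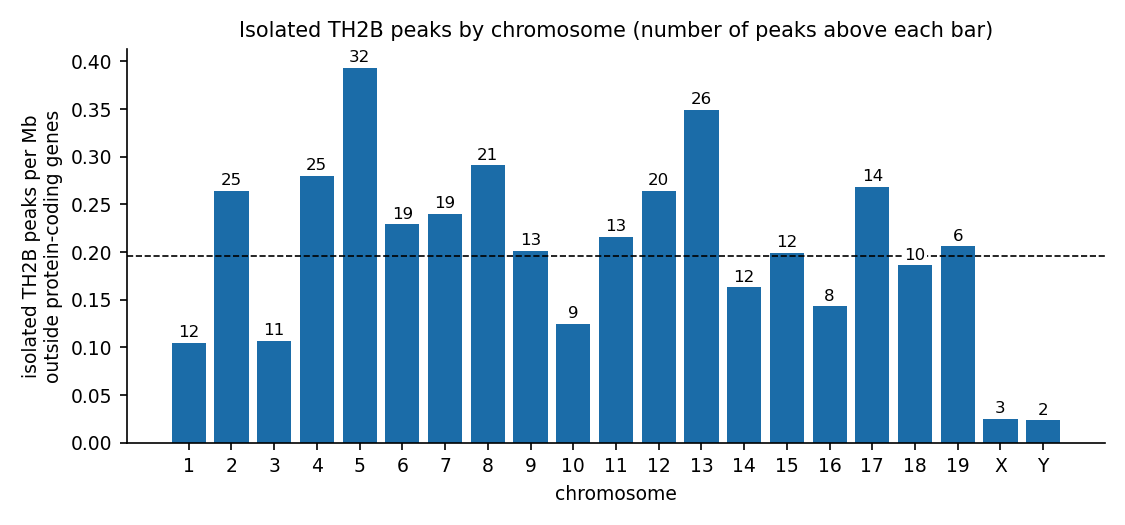
Isolated TH2B peaks outside protein-coding genes per Mb of sequence outside such genes (y axis) on each chromosome (x axis), with the number of peaks above each bar and the density over all chromosomes, 0.196 per Mb, as a dashed line. Chromosome 5 is highest at 0.393, and X and Y are lowest at 0.0255 and 0.0236.

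In width the members ran from 200 bp to 975 bp with a median of 232 bp (quartiles 203 and 297 bp), close to the median of 239 bp for all other TH2B peaks. After Gm4735, the widest were a 943-bp peak over CR524822.1 on an unplaced sequence, the Phgdh retrocopy Gm9252 at 678 bp, a 634-bp peak in the antisense gene D030055H07Rik, and peaks of 590 bp near Defb33 and 583 bp at Gm13035. Of the 10 widest members, 4 lay in the exon of a pseudogene, and the 548-bp peak similar to Tekt5 was also among them.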

How the data were processed

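Native ChIP of TH2B and TH2A in mature caudal sperm was compared with Input DNA, with 1 library each. The authors trimmed 150 bp paired reads (about 30000000 unique pairs for TH2B and Input, 34000000 for TH2A) using Trimmomatic 0.36. Alignment to mm10 used BWA and SAMtools, and the authors called peaks against Input with MACS2 2.1.3 on 2 pooled ChIP reactions per variant. The paper states that peaks were kept by a cutoff on the p-value. It names no correction of that cutoff for the number of positions tested. The deposited lists hold 1-based start, end and width in bp, and no score, count or signal. Depth at a peak is therefore unknown, and the number of peaks limits the precision. No mapping quality or blacklist filter is given in the sources used here.

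Peaks were placed by their centre against GENCODE M21 in Python 3.11. Sequence, soft-masking, tRNA genes and VISTA enhancers came from RefSeq GRCm38.p6, and the microRNA from a RefSeq table of the same build. Copies were found with BLAST 2.17.0 (word size 32, at least 95% identity over 80% of the peak, 65 primary sequences) and coding transcript matches at 80% identity over 50% of the peak. The background was every N-free 200-bp window. Names of unplaced sequences were not joined to RefSeq, so their 15 members have no sequence measures. The placement code was tested on simulated peaks. With 1 library no test between conditions was made.

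The members and gene lists were chosen with earlier results of these data known. Names were drawn from members within 250 bp of a noncoding or pseudogene TSS, the 10 widest, and the 10 nearest to and farthest from a coding gene. They also came from members overlapping TH2A, the 5 largest families, the listed RNAs and the limits of the rule. Not every member of these sets was named, and Gm15418 and Gm10830 lay beyond the 25 nearest starts that were planned. The retrocopy matches, the transcript matches outside pseudogenes, RefSeq starts, enhancers and the tRNA gene were named after their values were seen. Alternatives changed the distances, neighbour rule, overlap, copies and sequences counted.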

Additional observations from a re-analysis of the deposited data

How the results depend on the processing

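Of 54 alternative values for 8 results, 42 stayed within 1.5 times the count of members or inside the 95% interval of the reported value. The count of members, the share overlapping a noncoding gene or pseudogene and the share within 1 kb of such a start stayed so under every alternative run, with 225 to 488 members. With a coding TSS distance of 5000 bp, the share within 5 kb of any TSS was 39.8% and the median distance to a coding gene 33269.5 bp, which follows from the rule. With no peak left out for neighbours, the share within 5 kb of any TSS was 40.2%, the share with a near-identical copy 47%, the median GC content 57% and the share overlapping TH2A 11.1%. With peaks that have a near-identical copy left out, these were 54% within 5 kb, 14916.8 bp to a coding gene, 60% GC and 1.01% overlapping TH2A. Leaving out peaks with 1 or more neighbours gave a median GC content of 59.6%, and a copy identity of 98% gave a share of 26%. Except where stated, the cause was not tested. A stricter peak threshold was not run, since the lists hold no score, and no replicate could be left out. No paired analysis was possible because each variant has 1 library and no result comes from a test.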

Other observations

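A few neighbourhoods outside genes held several members. Gpm6a was the nearest protein-coding gene for 4 members, and Med13l, Pdia4 and Prl2c3 for 3 each. H2-T3, of the major histocompatibility complex, Dpyd, Unc5a and Eif4a2 were nearest for 2 each. The peaks near Gpm6a had 27 to 29 near-identical copies each, those near Pdia4 12 to 16 and those near Prl2c3 1 to 28. Reads of these peaks cannot be told apart from reads of the copies by these files. For the peaks near Med13l, H2-T3, Dpyd, Unc5a and Eif4a2 no such copy was found. All these loci were named after their values were seen.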
